A study of Mus musculus with 6 samples.

Results

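The genes described here move lactate and pyruvate across membranes and convert them. They are 10 named genes, taken by symbol from a table of 17577 genes, and all 10 were listed in every library. They comprise the monocarboxylate carriers Slc16a1, Slc16a3 and Slc16a7, their chaperone Bsg, the lactate dehydrogenase genes Ldha and Ldhb, the paired mitochondrial pyruvate carrier genes Mpc1 and Mpc2, and Pdha1 and Pdk1 of the pyruvate dehydrogenase step. The list was chosen by function around a measured value, the higher FPKM of Slc16a1 in the mutant libraries, so the level of Slc16a1 is given as a description and without a test.

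Germinal vesicle (GV) oocytes, the fully grown and still meiotically arrested eggs of the ovary, were profiled in 6 libraries of 12-week-old C57BL/6 J mice. In 3 libraries the oocytes were Bnc1tr/tr, that is homozygous for a frameshift allele which truncates basonuclin 1, a zinc finger transcription factor, and in the other 3 they were wild-type (WT). The methods of the study describe priming of the females with pregnant mare serum gonadotropin, collection from antral follicles, comparison of littermates and Smart-seq2 cDNA made from 1 oocyte at a time, a full-length method that primes on poly(A) tails and amplifies by PCR. The allele was present in every cell of the animal, so that an oocyte grew among follicle cells of the same genotype. No label ties a library to an animal, and the p-values below therefore measure the spread between these libraries only.

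The mammalian oocyte takes up pyruvate as its main fuel, because it uses glucose poorly, and the surrounding cumulus cells supply pyruvate and lactate. Monocarboxylate carriers of the SLC16 family pass lactate, pyruvate and ketone bodies with a proton across the plasma membrane, and need a single-pass chaperone, basigin or embigin, to reach it. Lactate dehydrogenase (LDH) is a tetramer that interconverts lactate and pyruvate. Its H subunit, from Ldhb, is abundant in mouse oocytes, while the M subunit, from Ldha, prevails in glycolytic tissues. Pyruvate enters the mitochondrial matrix through the MPC1 and MPC2 complex and is turned into acetyl-CoA by pyruvate dehydrogenase, which PDK1 inhibits by phosphorylation.

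Values are FPKM (fragments scaled to each kilobase of transcript and each M, or mega, of mapped fragments), so that levels of different genes are compared per length. Differences are of mean log2(FPKM + 1), Bnc1tr/tr minus WT, with their standard error (SE), from a limma fit over the 10560 genes that averaged 1 FPKM or more. A gene was called changed at a Benjamini-Hochberg adjusted p under 0.05 with an absolute difference over 0.5. The median difference of all tested genes was 0.15, and it was -0.09 after upper-quartile scaling, a shift of the zero point that applies to every difference below. Estimated depth was 13.4 to 21.4 M fragments a library, at which 3 fragments on an effective length of 1 kb amount to 0.14 to 0.224 FPKM. Log2 values correlated at 0.973 to 0.99 within and 0.908 to 0.93 between groups. Bnc1 itself was listed at 9.04, 6.51 and 5.83 FPKM in the mutant and at 13.17, 12.54 and 16.23 FPKM in the WT libraries, a difference of -0.89 ± 0.20 (SE, n = 3 a group, limma adjusted p = 0.009), which does not show the frameshift itself.

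All 13 oocyte markers were above 10 FPKM in each library. They summed to 15900, 15600 and 17000 FPKM in Bnc1tr/tr and 17900, 19600 and 18900 FPKM in WT oocytes. Without overlap, 2 of them were higher and 3 lower in the mutant. The groups did not overlap in 46.8% of all tested genes, a share that belongs beside each marker count in this paragraph. Markers of other cells differed between the groups and within the mutant group. The summed FPKM of 8 immune markers was 30.0, 62.5 and 1.34 in Bnc1tr/tr and 3.0, 2.02 and 1.39 in WT oocytes, and the 3 red blood cell markers listed, all hemoglobin genes, summed to 1.04, 10.1 and 0 FPKM in Bnc1tr/tr and were at 0 in every WT library. Lyz2, a myeloid lysozyme gene, was at 5.81 and 47.97 FPKM and Tyrobp at 8.42 and 9.8 FPKM in Bnc1tr/tr replicates 1 and 2, and both were at 0 in the other 4 libraries. The 11 granulosa and cumulus markers listed summed to 43.3, 60.4 and 45.9 FPKM in the mutant and 36.7, 40.0 and 22.8 FPKM in the WT libraries, mostly from Cyp19a1. Foxl2, Amhr2 and Wt1 were at 0 in every mutant library and at most 0.21 FPKM in WT libraries. Beside 46.8% of all tested genes, none of the 11 was lower without overlap and 3 were higher in every mutant than in any WT library. These were Fshr, the follicle-stimulating hormone receptor gene (4.54, 5.83 and 5.37 FPKM in the mutant and 0.31, 0.74 and 0 FPKM in the WT libraries), Kitl (3.1, 1.94 and 2.33 against 1.13, 1.12 and 1.18 FPKM) and Nr5a2 (7.09, 5.15 and 4.1 against 3.49, 3.82 and 3.85 FPKM). Others ran the other way with overlap. Inha was at 0.18, 1.81 and 0.09 FPKM in the mutant and 6.78, 3.45 and 0.04 FPKM in the WT libraries. Hsd17b1 was at 0.21, 0.38 and 0 against 0.93, 1.43 and 0 FPKM. All 3 listed markers of ovarian surface epithelium were higher in every mutant than in any WT library. They summed to 2.47 to 6.12 FPKM in the mutant and 0.59 to 0.83 FPKM in the WT libraries, the 5 of theca and luteal cells to 5.95 to 7.62 and 0.71 to 4.17 FPKM, and the 4 of endothelium to 5.38 to 8.1 and 10.1 to 11.7 FPKM. The endothelial markers did not run together. Pecam1 was lower in the mutant (5.13, 3.75 and 3.16 against 9.85, 9.92 and 7.55 FPKM) and Kdr higher (1.54, 0.64 and 0.53 against 0.1, 0.12 and 0.07 FPKM). In a library value, fewer cells of a type and less RNA per cell cannot be told apart.

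The sequences upstream of 3 members are shown because Slc16a1 and Ldha were higher and Ldhb lower in the mutant libraries. Each is the 250 bases before a RefSeq start site of GRCm38.p6, 5′ to 3′ on the strand of the gene, with every CACGTG (a palindromic E-box core, the same on both strands) in capitals. The windows lie at chr3:104638414-104638663 (plus strand) for Slc16a1, chr7:46845554-46845803 (plus strand) for Ldha and chr6:142507958-142508207 (minus strand) for Ldhb.
Slc16a1: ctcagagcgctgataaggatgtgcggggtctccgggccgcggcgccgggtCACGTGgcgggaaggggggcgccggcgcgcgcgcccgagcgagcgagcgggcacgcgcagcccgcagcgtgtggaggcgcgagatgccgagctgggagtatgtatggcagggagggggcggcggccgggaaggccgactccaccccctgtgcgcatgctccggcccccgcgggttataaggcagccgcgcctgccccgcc
Ldha: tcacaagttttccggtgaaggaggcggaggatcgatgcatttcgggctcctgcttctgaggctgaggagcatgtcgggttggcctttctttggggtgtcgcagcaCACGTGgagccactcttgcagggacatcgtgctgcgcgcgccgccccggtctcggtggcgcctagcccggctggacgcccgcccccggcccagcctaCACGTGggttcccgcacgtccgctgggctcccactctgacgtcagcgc
Ldhb: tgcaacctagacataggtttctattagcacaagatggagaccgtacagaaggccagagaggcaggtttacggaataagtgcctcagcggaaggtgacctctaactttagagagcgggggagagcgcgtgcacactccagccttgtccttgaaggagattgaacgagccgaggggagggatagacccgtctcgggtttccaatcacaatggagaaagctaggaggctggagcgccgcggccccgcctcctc
The Slc16a1 window held the motif once, starting 200 bases before the start site. The first of 2 Ldha windows held it at 2 places, 145 and 48 bases before the start, and the Ldhb window held none. Among 32851 windows of the same length over all genes, 6.02% held the motif and 0.429% held it at least 2 times. The motif contains a CpG, of which these windows had a median of 6, while those shown had 37 (Slc16a1), 25 (Ldha) and 14 (Ldhb), so the share over all genes comes from windows poorer in CpG. Of the 11 windows found for 8 of the members, 2 held it, namely those of Slc16a1 and Ldha shown here. Slc16a7, which was also called higher, and Bsg had no window in the table used. These matches describe letters only. The windows shown were picked by the direction of change, so nothing is read from which of them held the motif. CACGTG is not presented as a BNC1 site, and BNC1 binding was not measured in these data.

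Among the plasma membrane carriers, Slc16a1, which encodes the widely expressed lactate and pyruvate carrier MCT1, lies at chr3:104638664-104658462. Its levels were 21.65, 17.88 and 16.56 FPKM in Bnc1tr/tr replicates 1, 2 and 3, and 7.42, 6.25 and 5.82 FPKM in WT replicates 1, 2 and 3. All 3 mutant libraries were above all 3 WT libraries, and the spread within each group was small beside the gap. The means were 18.7 ± 2.64 and 6.5 ± 0.828 FPKM (SD, n = 3), 2.88-fold apart, and the difference was 1.39 ± 0.18 (SE) on the log2(FPKM + 1) scale. After upper-quartile, median-ratio and quantile scaling it was 1.14, 1.19 and 1.11. No 31-base word of its transcripts occurred in another gene.

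Slc16a7 (chr10:125219270-125389586) encodes MCT2, a carrier with a high affinity for pyruvate. It was listed at 3.94, 4.49 and 2.14 FPKM in the mutant libraries and at 0.24, 0.77 and 0.65 FPKM in the WT libraries. The groups did not overlap, and every WT value was under 1 FPKM. The difference was 1.52 ± 0.25 (SE, limma adjusted p = 0.0018), but the gene passed the filter on low values through its mutant libraries alone. In contrast, Slc16a3 (MCT4, the lactate exporter of glycolytic cells) was listed at 0.03, 0 and 0 FPKM in the mutant and 0, 0 and 0.07 FPKM in the WT libraries. It was not tested, and in every library it lay under the value that 3 fragments give on 1 kb.

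Of the summed FPKM of these 3 carriers, Slc16a1 made up 84.5%, 79.9% and 88.6% in the mutant and 96.9%, 89.0% and 89.0% in the WT libraries. Slc16a1 was thus the most abundant of the 3 in each of the 6 libraries.

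Bsg (chr10:79704358-79711979), the basigin gene whose product accompanies MCT1 and MCT4 to the membrane, was far more abundant than any of the carriers. Its levels were 90.39, 86.68 and 109.2 FPKM in Bnc1tr/tr and 133.96, 115.84 and 80.98 FPKM in WT oocytes, and the lowest value of all was a WT library. The difference of -0.18 ± 0.22 (SE, limma adjusted p = 0.56) was within the spread. Set against Bsg in the same library, Slc16a1 stood at 0.24, 0.206 and 0.152 in the mutant and at 0.0554, 0.054 and 0.0719 in the WT libraries. A common factor for all genes of a library does not alter this ratio, while quantile scaling does.

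**Figure D1:**
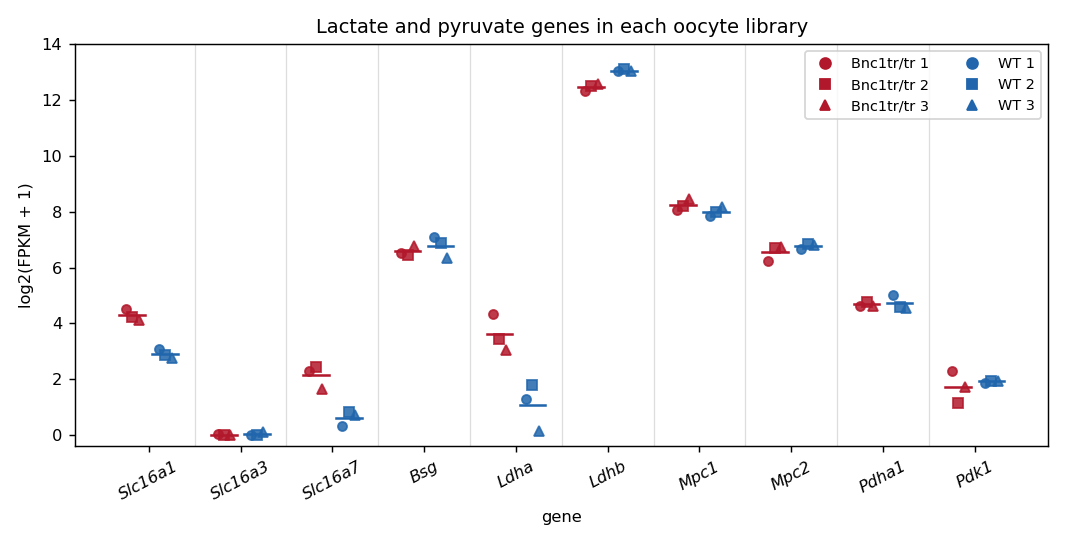
Levels of the 10 genes in each library as log2(FPKM + 1), with Bnc1tr/tr in red, WT in blue, a marker shape for each replicate and a bar at the group mean. Slc16a1, Slc16a7 and Ldha lie higher in the 3 mutant libraries than in any WT library, Ldhb lies lower, and the groups of the other 6 genes overlap.

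The lactate dehydrogenase genes moved in opposite directions. Ldha (chr7:46842274-46855627), which encodes the M subunit, was listed at 19.13, 9.88 and 7.22 FPKM in Bnc1tr/tr and at 1.48, 2.46 and 0.10 FPKM in WT oocytes. The mutant libraries spread widely, yet the lowest of them was well above the highest WT library. The difference was 2.53 ± 0.44 (SE, limma adjusted p = 0.0026), with means of 12.1 ± 6.25 and 1.35 ± 1.19 FPKM (SD, n = 3). Other genes held 19.6% of the 31-base words of its transcripts, with the predicted gene Gm5452 sharing the most, so that some of its reads could belong elsewhere.

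Ldhb (chr6:142490249-142507957), the H subunit gene, was at 5144.57, 5710.61 and 6036.58 FPKM in the mutant and at 8285.49, 8880.78 and 8284.47 FPKM in the WT libraries. It was among the most abundant transcripts of the oocyte, in place 1, 1 and 3 of all listed genes in WT replicates 1, 2 and 3 and in place 6 in each mutant library. Ldhb made up 1.14% to 1.31% of the FPKM total in WT and 0.782% to 0.877% in mutant oocytes. The groups did not overlap, and the difference was -0.59 ± 0.16 (SE, limma adjusted p = 0.019). The call ended when some single libraries were left out, with a limma adjusted p of 0.065 without Bnc1tr/tr replicate 1 and 0.086 without WT replicate 2. After quantile scaling the difference was -0.47 and Ldhb fell short of the minimum of 0.5. A predicted gene, Gm5514, accounted for the 33.0% of its words found elsewhere.

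Ldhb made up nearly all of the pool of both transcripts in either group. Ldhb was 99.63%, 99.827% and 99.881% of the summed FPKM of Ldha and Ldhb in Bnc1tr/tr and 99.982%, 99.972% and 99.999% in WT oocytes. The means differed by -0.21 percentage points (exact two-sided permutation p = 0.10, the smallest that 3 against 3 allows), with every mutant library under every WT library. Put as a ratio, Ldhb exceeded Ldha 269, 578 and 836 times in the mutant libraries and 5600, 3610 and 82800 times in the WT libraries. The last of these rests on 0.10 FPKM of Ldha, below what 3 fragments give on 1 kb in that library.

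Mpc1 and Mpc2, whose products form the pyruvate carrier of the inner mitochondrial membrane as a heterodimer, did not pass the test. Mpc1 (chr17:8283787-8297667) was at 266.79, 296.31 and 351.01 FPKM in the mutant and 227.07, 254.48 and 282.97 FPKM in the WT libraries, with a difference of 0.25 ± 0.18 (SE, limma adjusted p = 0.31). Upper-quartile scaling turned this difference to -0.022. Mpc2 (chr1:165461260-165481218) was at 75.08, 102.11 and 106.23 FPKM in the mutant and 100.97, 114.57 and 111.9 FPKM in the WT libraries, a difference of -0.22 ± 0.19 (SE, limma adjusted p = 0.40). Both genes overlapped between the groups.

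Their ratio within a library, looked at after these values had been seen and thus without a test, separated the groups. Mpc1 over Mpc2 was 3.55, 2.9 and 3.3 in Bnc1tr/tr and 2.25, 2.22 and 2.53 in WT oocytes. On the log2 scale the means were 1.70 ± 0.15 and 1.22 ± 0.10 (SD, n = 3), 0.48 apart, and the difference ran from 0.41 to 0.56 when any 1 library was left out. Of the words in Mpc1 transcripts, 30.8% occurred in other genes, among which 4930506C21Rik shared the most.

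**Figure D2:**
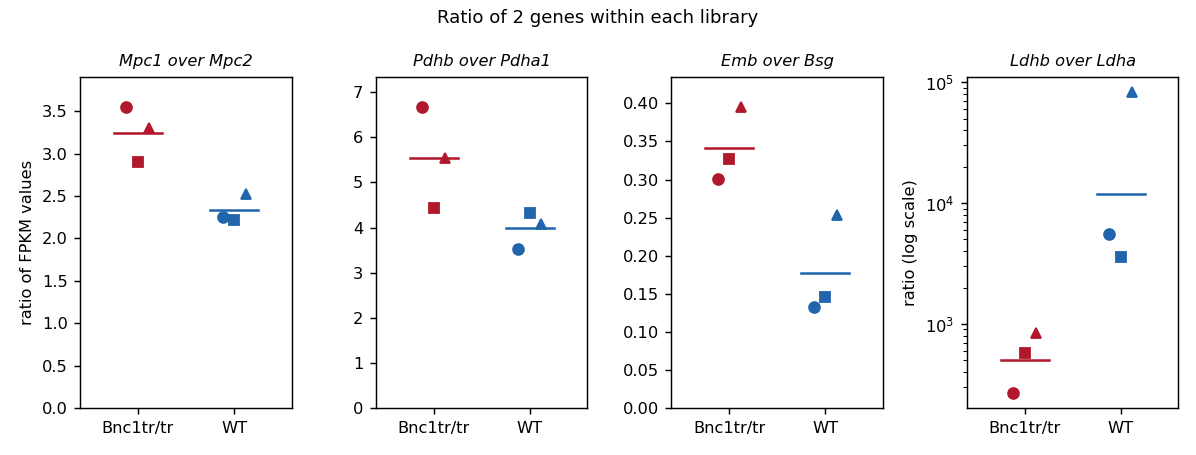
Ratios of 2 genes within each library, with Bnc1tr/tr in red, WT in blue, a marker shape for each replicate and a bar at the group mean (the mean of log values for Ldhb over Ldha, whose axis is logarithmic). Mpc1 over Mpc2 was at least 2.9 in each mutant and at most 2.53 in each WT library, and Ldhb over Ldha was at most 836 in each mutant and at least 3610 in each WT library.

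Pdha1 (chrX:160122219-160138430) encodes the catalytic alpha subunit of the first enzyme of the pyruvate dehydrogenase complex. It was at 23.49, 26.48 and 23.93 FPKM in the mutant and 31.43, 23.26 and 22.46 FPKM in the WT libraries, and the difference was -0.05 ± 0.18 (SE, limma adjusted p = 0.88). The ranges overlapped, and without WT replicate 1, the highest, the difference was 0.10. Pdhb, the beta subunit of the same enzyme, was at 156.64, 117.29 and 132.54 FPKM in the mutant and at 110.99, 100.73 and 91.87 FPKM in the WT libraries, which did not overlap but did not pass the test (difference 0.41 ± 0.18, SE, limma adjusted p = 0.11). Pdhb over Pdha1 was 6.67, 4.43 and 5.54 in the mutant and 3.53, 4.33 and 4.09 in the WT libraries, and the closest libraries of the groups were 4.43 and 4.33. Both genes share words with others, Pdha1 15.8% of them (Map3k15 the most) and Pdhb 17.9%.

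Pdk1 (chr2:71873215-71903858), a kinase that switches the complex off, was low throughout. Its levels were 3.97, 1.24 and 2.29 FPKM in Bnc1tr/tr and 2.69, 2.87 and 2.82 FPKM in WT oocytes, so that the mutant libraries lay on both sides of the tight WT range. The difference was -0.19 ± 0.27 (SE, limma adjusted p = 0.63), and it was 0.092 without Bnc1tr/tr replicate 2. Pdk3, a related kinase gene outside the member list, was more abundant. It was at 20.69, 19.29 and 24.65 FPKM in the mutant and 44.81, 38.36 and 24.15 FPKM in the WT libraries, with overlap (difference -0.67 ± 0.24, SE, limma adjusted p = 0.061). Pdk3 was called lower after upper-quartile, median-ratio and quantile scaling.

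Of the 9 members besides Slc16a1, 8 could be tested, of which 2 were called higher (Slc16a7 and Ldha), 1 lower (Ldhb) and 5 neither. Over all tested genes 31.8% were called, 24.1% as higher and 7.68% as lower in Bnc1tr/tr. The groups did not overlap in 3 of these 8 members and in 46.8% of all tested genes. The members were listed with earlier results of this comparison known, so these shares are printed side by side and nothing is read from them.

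**Figure D3:**
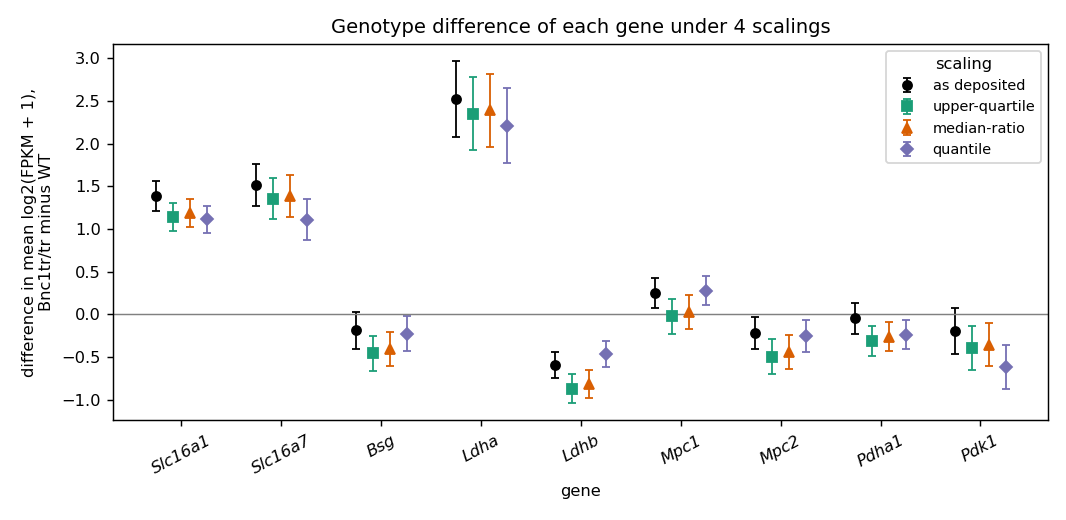
Difference in mean log2(FPKM + 1), Bnc1tr/tr minus WT, of the 9 genes that passed the filter, under the deposited scaling and 3 others. Points are estimates of limma and bars are 1 SE on either side. Slc16a1, Slc16a7 and Ldha stay above 0 and Ldhb below 0 under all 4, while Mpc1 crosses 0 under upper-quartile scaling.

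In both groups the order of levels opened with Ldhb, Mpc1, Bsg, Mpc2, Pdha1 and Slc16a1, on the FPKM scale. Bsg and Mpc2 were not separated in either group, since their ranges overlapped. Below Slc16a1 the order differed. In WT oocytes Pdk1 came next with a mean of 2.79 FPKM, followed by Ldha (1.35 FPKM) and Slc16a7 (0.553 FPKM), whose ranges overlapped, and by Slc16a3. In mutant oocytes Ldha (12.1 FPKM) followed Slc16a1 with overlapping ranges, and Slc16a7 (3.52 FPKM) and Pdk1 (2.5 FPKM) overlapped in turn, above Slc16a3.

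The further genes of these pathways were read from lists by function, 49 genes in all, of which 47 were listed and 34 passed the filter. Here 12 were called higher, 1 lower and 21 neither, beside 24.1% higher and 7.68% lower among all tested genes, with a median difference of 0.16 beside 0.15 for all tested genes. Of the 12 called higher, 5 passed the filter through their mutant libraries alone. The split moved with the scaling, to 9 higher and 8 lower after upper-quartile, 9 and 7 after median-ratio and 9 and 6 after quantile scaling. Over all genes the share of calls that were higher went from 75.8% to 50.8%, 56.0% and 48.0% in the same order.

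The other monocarboxylate carriers and their partners had 10 tested genes of 12 listed, with 7 called higher and none lower, beside 24.1% and 7.68% of all tested genes. Of the 7, 4 (Slc5a8, Slc16a4, Slc16a5 and Slc16a6) passed the filter through their mutant libraries alone and so had to lie above 0. Of the 6 carriers and partners that averaged 1 FPKM or more in both groups, 3 were called higher, and their median difference was 0.54 beside 0.15 for all tested genes. Slc16a12, under the filter and not tested, ran the other way at 0.06, 0.02 and 0.02 FPKM in the mutant and 0.49, 0.55 and 1.2 FPKM in the WT libraries. Slc16a5, a family member whose cargo is little known, was at 26.57, 17.23 and 14.44 FPKM in the mutant and at 0.33, 0.04 and 0.16 FPKM in the WT libraries. It was thus in the range of Slc16a1 in mutant oocytes and near 0 in WT oocytes (difference 4.08 ± 0.23, SE, limma adjusted p = 4.9e-06). Slc5a8, a sodium-coupled carrier of lactate and pyruvate, was at 3.39, 2.29 and 4.28 FPKM in the mutant and 0.17, 0.18 and 0.27 FPKM in the WT libraries (difference 1.81 ± 0.20, SE, limma adjusted p = 0.00021).

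Emb encodes embigin, the partner that MCT2 prefers. It was at 27.25, 28.38 and 43.14 FPKM in Bnc1tr/tr and 17.78, 16.88 and 20.57 FPKM in WT oocytes, without overlap. The difference of 0.78 ± 0.21 (SE, limma adjusted p = 0.021) was between 0.51 and 0.59, and no longer called, under the 3 other scalings, and the call also ended without Bnc1tr/tr replicate 3, WT replicate 1 or WT replicate 2. Emb over Bsg was 0.301, 0.327 and 0.395 in the mutant and 0.133, 0.146 and 0.254 in the WT libraries. Both chaperones of the carriers were thus present, with Bsg the more abundant in every library. Of the 31-base words of Emb, 17.4% occurred in other genes.

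Slc16a13 was at 7.45, 7.14 and 6.06 FPKM in the mutant and 2.92, 2.71 and 1.76 FPKM in the WT libraries (difference 1.199 ± 0.189, SE, limma adjusted p = 0.0015). Slc16a4 was at 4.54, 2.81 and 1.68 FPKM against 0.16, 0.74 and 0.64 FPKM, and Slc16a6, a ketone body carrier, at 1.41, 4.23 and 0.49 FPKM against 0.04, 0.03 and 0.16 FPKM. Slc16a9 was at 1.94, 3.26 and 2.47 FPKM against 1.65, 0.88 and 1.05 FPKM, and its call ended under upper-quartile, median-ratio and quantile scaling, with no filter, and without any of Bnc1tr/tr replicates 2 and 3 and WT replicates 2 and 3. The call of Slc16a6 ended after quantile scaling, with no filter, and without any of Bnc1tr/tr replicate 1 and WT replicates 1 and 2. In these 4 carriers the groups did not overlap, although the WT values of Slc16a6 were near the limit of detection. Other genes held 22.4% of the 31-base words of Slc16a6 and 20.9% of those of Slc16a9.

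Among the other lactate dehydrogenase genes, the 2 tested (Ldhc of germ cells and Ldhd for D-lactate) were not called, though Ldhd was called lower after quantile scaling. Of 9 tested genes of the pyruvate dehydrogenase complex and its control, 2 were called higher, a share near the 24.1% called higher among all tested genes. Other scalings added lower calls in this list. These were Pdk3 after upper-quartile, median-ratio and quantile scaling, Dld and Lipt1 after the first and second of these, and Pdp1 after upper-quartile and quantile scaling. Pdp2, a phosphatase that reverses the inhibitory phosphorylation laid down by kinases such as PDK1, was at 4.15, 3.45 and 2.66 FPKM in Bnc1tr/tr and 0.39, 0.26 and 1.08 FPKM in WT oocytes (difference 1.51 ± 0.23, SE, limma adjusted p = 0.0013). Lipt2, which starts the making of the lipoyl cofactor of the complex, was at 103.62, 111.02 and 93.3 FPKM against 57.92, 49.56 and 48.1 FPKM (difference 0.97 ± 0.17, SE, limma adjusted p = 0.0023). In both genes all mutant libraries were above all WT libraries, and Pdp2 passed the filter through its mutant libraries alone.

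Of 4 tested genes of pyruvate supply and use, Gpt2, the mitochondrial alanine transaminase that interconverts alanine and pyruvate, was called higher at 14.95, 9.91 and 11.4 FPKM in the mutant and 5.83, 5.54 and 3.38 FPKM in the WT libraries (difference 1.15 ± 0.23, SE, limma adjusted p = 0.005). Me2, the mitochondrial malic enzyme that makes pyruvate from malate, was called lower at 26.14, 36.48 and 38.53 FPKM against 69.49, 58.72 and 47.86 FPKM (difference -0.78 ± 0.21, SE, limma adjusted p = 0.021). The Me2 call ended without Bnc1tr/tr replicate 1, WT replicate 1 or WT replicate 2. Thus 1 of the 4 was called higher and 1 lower, beside 24.1% and 7.68% of all tested genes. Pkm, another of the 4, was called lower after upper-quartile and median-ratio scaling.

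Oxidation of lactate yields NADH in the cytosol, whose electrons reach mitochondria through shuttles. In the deposited scaling 2 of 9 tested shuttle genes were called, both higher, a share near the 24.1% called higher among all tested genes. The direction moved with the scaling, since Got2 and Slc25a11 were called lower after upper-quartile, median-ratio and quantile scaling. Gpd2, the mitochondrial glycerol-3-phosphate dehydrogenase, was at 50.58, 46.27 and 40.38 FPKM in Bnc1tr/tr and 2.06, 1.26 and 3.92 FPKM in WT oocytes, with no WT library near a mutant one (difference 3.85 ± 0.27, SE, limma adjusted p = 1.8e-05). Got1, the cytosolic aspartate transaminase of the malate-aspartate shuttle, was at 78.3, 77.61 and 65.99 FPKM against 36.16, 31.22 and 52.97 FPKM (difference 0.90 ± 0.22, SE, limma adjusted p = 0.013), and its call ended after upper-quartile and median-ratio scaling and without WT replicate 2. Gpd1, the cytosolic partner of Gpd2, was listed at 0 FPKM in 5 of the 6 libraries and at 0.07 FPKM in Bnc1tr/tr replicate 2.

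**Figure D4:**
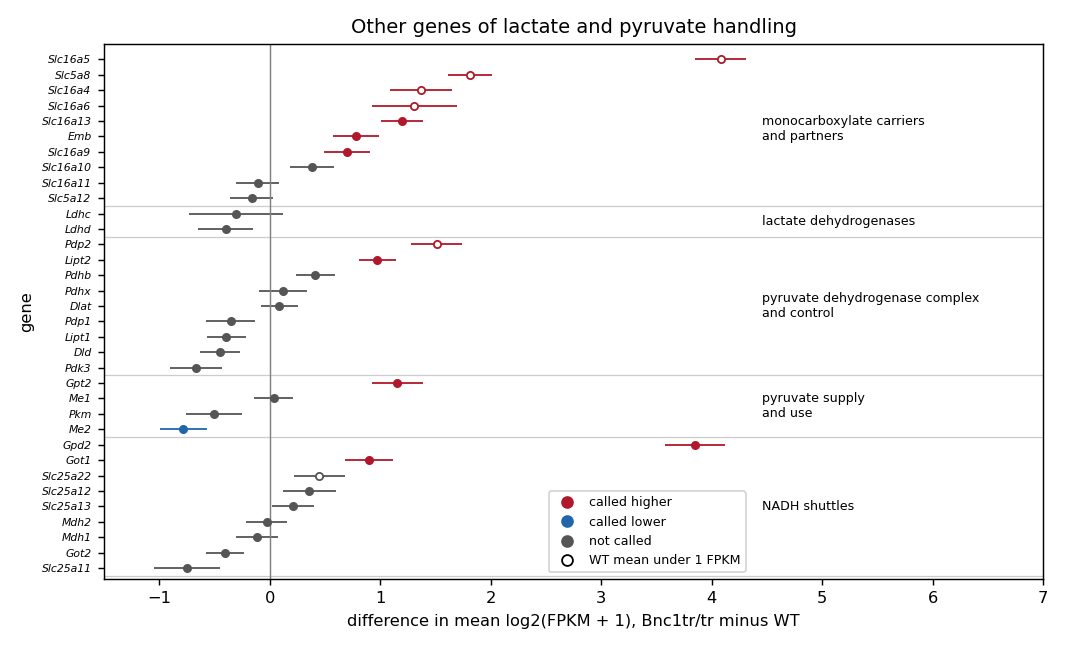
Difference in mean log2(FPKM + 1), Bnc1tr/tr minus WT, of the 34 tested genes of the 5 further lists, with bars of 1 SE on either side. Red and blue points were called higher and lower, grey points were not called, and open points mark genes whose WT mean was under 1 FPKM. Slc16a5 at 4.08 and Gpd2 at 3.85 lie far to the right of the other genes.

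Over the 6 libraries, 5 of 6865 genes that averaged 5 FPKM or more had the profile nearest to that of Slc16a1, by the root mean square distance of mean-centred log2(FPKM + 1) values. They were B4galt5 (distance 0.081), Ypel2 (0.083), Diras2 (0.09), Cdc42se1 (0.091) and Fabp5 (0.092). Fabp5, a fatty acid binding protein gene, was at 252.94, 256 and 220.71 FPKM in the mutant and at 107.13, 96.22 and 82.56 FPKM in the WT libraries, a far higher level than Slc16a1. The genes were picked by nearness to Slc16a1 in these same libraries, so a shared order of groups follows from the choice. Over all tested genes 24.1% were called higher, and nothing is read from the match.

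Bnc1tr/tr replicate 3 had an immune sum as low as WT and no hemoglobin. Other markers still set it apart from every WT library. Fshr (5.37 FPKM), Kdr (0.53 FPKM) and the surface epithelium sum (2.47 FPKM) were higher, and Pecam1 (3.16 FPKM) was lower. In that library Slc16a1 was at 16.56 FPKM, Ldha at 7.22 FPKM, Slc16a7 at 2.14 FPKM and Ldhb at 6036.58 FPKM. The first 3 were above and Ldhb was below every WT library, which follows from the lack of overlap given above and is no separate result. Among the mutant libraries, however, each of these genes was nearest to WT in this one. Set alone against the 3 WT libraries, it gave differences of 1.23 for Slc16a1, 1.96 for Ldha (limma adjusted p = 0.16), 1.03 for Slc16a7 (limma adjusted p = 0.11) and -0.49 for Ldhb (limma adjusted p = 0.21). With this lone library, taken to vary as WT does, limma called 0 of the 8 other members, and 2 (Ldha and Slc16a7) had an unadjusted p under 0.05. The filter on low values read all 6 libraries in this fit too, so that Slc16a7 still entered it through its mutant libraries alone. The part of other cell types in these results, whether immune, red blood, granulosa, epithelial or luteal cells, was not tested.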

How the data were processed

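mRNA of GV oocytes was measured in 6 libraries, 3 Bnc1tr/tr and 3 WT, grouped by the genotype in the labels. The authors deposited 1 table of FPKM per library, rounded to 2 decimals, with NCBI Gene IDs and symbols, and the same 17577 genes in each. The submitters' processing notes name HISAT2 2.0.4, Bowtie2 2.2.5, RSEM 1.2.12 and GRCm38.p6, and which tool made which step, the annotation and any gene filter are not given in the sources used here. FPKM is relative to the whole library, so that more of one RNA lowers the values of the rest, and since PCR products were not marked by molecule, depth and detection limits cover counting error only.

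The fit of limma 3.58.1 (R 4.3.3) used log2(FPKM + 1) values, a scale on which changes of low genes look smaller, and took in genes that averaged 1 FPKM or more in the 6 libraries. Adjustment was by Benjamini-Hochberg over all 10560 genes tested, and a call needed an adjusted p under 0.05 and an absolute difference over 0.5, the thresholds of the study. The fit was tested on simulated data. Shares were compared by an exact permutation test in SciPy 1.17.1. A depth estimate came from the spacing of low FPKM values of genes with 1 transcript and entered no test. Shared words are the 31-base words of a gene's GENCODE M21 transcripts found in other genes' transcripts. Gene positions and upstream windows are those of RefSeq (GRCm38.p6), in which all 10 members and 17470 of the 17577 IDs were found; windows were found for 8 members.

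The members, the pathway lists and the marker lists were chosen with earlier results of these data known. Named genes were every member, every other pathway gene that was called, the 5 genes nearest to Slc16a1 and Bnc1. Pathway genes not called in the main fit, such as Pdhb, Pdk3, Gpd1, Ldhc and Ldhd, were named after their values had been seen. The ratios within a library were chosen then too. Alternatives were a pseudocount of 0.1, no filter, a minimum mean of 5 FPKM, upper-quartile, median-ratio and quantile scaling, rescaling to TPM or without the 20 most abundant genes, trend and robust variances, other thresholds, the replicate number as a block and leaving out each library. The fit with Bnc1tr/tr replicate 3 alone against WT was added after seeing the data. Figures were drawn with matplotlib 3.10.9.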

Additional observations from a re-analysis of the deposited data

How the results depend on the processing

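Of 151 values of the 9 tested members under the alternatives, 139 were rated the same as in the main fit. For members other than Slc16a1 this meant the same direction and the same side of a limma adjusted p of 0.05. The minimum difference of 0.5 was not part of it, so Ldhb after quantile scaling (-0.47) was rated the same. For Slc16a1 it meant a move within 1 SD, and 3 values, 1.11 to 1.19, moved further but kept their direction. Directions turned for Mpc1 under upper-quartile scaling (-0.022), for Bsg with Bnc1tr/tr replicate 3 alone against WT (0.017), and for Pdha1 and Pdk1, whose differences ran from -0.13 to 0.10 and from -0.48 to 0.092 when any 1 library was left out. With Bnc1tr/tr replicate 3 alone, a fit chosen after seeing the data, limma called 880 genes in place of 3358, 4 pathway genes in place of 13 and 0 members in place of 3 (2 with an unadjusted p under 0.05). The construction of that fit leaves fewer libraries. A minimum mean of 5 FPKM, which tests fewer genes, gave 2046 genes and 7 pathway genes, and a difference over 1 gave 1677 and 8. Leaving out 1 library gave 2323 to 3539 genes, 2 to 3 members and 8 to 16 pathway genes, the fewest pathway genes without WT replicate 2. The Ldhb share differed by -0.26 to -0.13 percentage points when 1 library was left out. In the fit that took replicate numbers as a block, 3733 genes, 3 members and 13 pathway genes were called, and the mean difference in Ldhb share within pairs was -0.21 percentage points. Same-numbered libraries deviated from their group means with correlations of 0.28, -0.03 and 0.12, and 2 of 3 mutant libraries correlated best with their own number, which does not establish a pairing. Values under about 0.2 FPKM rest on 3 fragments or fewer for a 1 kb transcript, which limits Slc16a3 and the WT levels of Ldha in replicate 3.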
